A study of Mus musculus with 371 samples.

Results

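The transcripts described here encode the first steps of signalling from the T cell receptor: the CD3 chains Cd3d, Cd3e, Cd3g and Cd247, the kinases Lck and Zap70, the adaptors Lat and Lcp2, and the surface receptor Cd5. They were chosen by name, as 9 of the 23362 genes in the table, and all 9 were found there. The cells were T cells sorted from B16F10 melanoma, a transplanted tumour line of C57BL/6 mice, and each was sequenced by Smart-seq2, which copies full-length transcripts of 1 cell. The 4 groups were CD4-sorted cells of Il27ra-deficient mice (KO CD4, 89 cells kept), CD4-sorted cells of wild-type mice (WT CD4, 85), CD8-sorted cells of Il27ra-deficient mice (KO CD8, 86) and CD8-sorted cells of wild-type mice (WT CD8, 90), all of strain C57BL/6. Il27ra encodes the IL-27 receptor alpha chain, and the stated purpose was to find genes that IL-27 induces in T cells of the tumour. The protocol text names only CD8 cells, so the sort was taken from the titles. Age and sex of the mice, and the part of Il27ra that was deleted, are not given in the sources used here.

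Each group carried 1 animal name in the titles, and its cells were numbered within 1 block of 96. The titles also hold a number 3 beside the genotype in every group, and they end in p2 for CD4-sorted cells and p1 for CD8-sorted cells. That ending coincides with the sort, and its meaning is not given. A group was therefore read as 1 sorted pool with no replicate, which the titles do not state. No test between groups was made, and pool and genotype, or pool and sort, cannot be told apart. Spreads are standard deviations (SD) over the cells of a pool. Il27ra itself did not separate the genotypes: its transcript was detected in 50.6% of KO CD4, 50.6% of WT CD4, 53.5% of KO CD8 and 51.1% of WT CD8 cells, with means of 47.6, 83.1, 58.4 and 51.7 FPKM in that order. A gene-level value also counts reads from exons that a deletion leaves, so these values neither bear out nor contradict the labels, and KO and WT stand throughout for what the libraries were labelled. Cells held a median of 1868 detected genes in KO CD4, 1661 in WT CD4, 1955 in KO CD8 and 2148 in WT CD8 cells. Cd4 was the only co-receptor transcript in 61 KO and 54 WT cells of the CD4 sort, and Cd8a or Cd8b1 was found without Cd4 in 84 KO and 83 WT cells of the CD8 sort. At least 2 markers of 1 other cell type were found in 18 KO CD4, 20 WT CD4, 24 KO CD8 and 29 WT CD8 cells, most of them melanoma markers.

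The T cell receptor has no signalling part of its own and depends on the CD3 chains, whose tails are phosphorylated by Lck when the receptor meets its antigen. Zap70 binds the phosphorylated tails and in turn phosphorylates the adaptor Lat in the membrane and the adaptor SLP-76, encoded by Lcp2, which together gather the enzymes of calcium and Ras signalling. CD5 is a surface receptor that dampens this signal, and its level is known to follow the strength of receptor signalling.

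Cd3g, Cd3d and Cd3e lie side by side on mouse chromosome 9 (GRCm38, the build also called mm10). Cd3g (ENSMUSG00000002033) runs from 44969572 to 44980431 on the minus strand and Cd3d (ENSMUSG00000032094) from 44981786 to 44987339 on the plus strand, so they point away from each other across 1354 bases. Cd3e (ENSMUSG00000032093) lies at 44998740 to 45009627 on the minus strand. Cd247 (ENSMUSG00000005763) and Zap70 (ENSMUSG00000026117) are on chromosome 1, Lck (ENSMUSG00000000409) on chromosome 4, Lat (ENSMUSG00000030742) on chromosome 7, Lcp2 (ENSMUSG00000002699) on chromosome 11 and Cd5 (ENSMUSG00000024669) on chromosome 19. The GENCODE span of Cd247 overlaps 6 other annotated genes, including Pou2f1 on the opposite strand, and that of Cd3e overlaps 2. Those of Lck, Zap70, Lat and Lcp2 overlap 1 each. The one at Lcp2, 4930469K13Rik on the opposite strand, is protein-coding. Whether exons overlap was not examined. Strand is not stated for the counting, so reads of any overlapping exons could not be told apart.

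RefSeq (GRCm38.p6) holds a promoter sequence for each of the 9 genes. The 250 bases before the annotated start are shown for Lat and Zap70, which differed most between KO and WT cells, and for Lck and Cd5, which differed most between the sorts in WT cells. Capitals mark the ETS core GGAAG (or CTTCC on the other strand) and the RUNX site TGTGGT (or ACCACA), after transcription factor families of lymphocytes. For Lck and Zap70, with 2 and 3 starts in RefSeq, the start farthest upstream was used.
Lat, chr7:126369569-126369818, minus strand: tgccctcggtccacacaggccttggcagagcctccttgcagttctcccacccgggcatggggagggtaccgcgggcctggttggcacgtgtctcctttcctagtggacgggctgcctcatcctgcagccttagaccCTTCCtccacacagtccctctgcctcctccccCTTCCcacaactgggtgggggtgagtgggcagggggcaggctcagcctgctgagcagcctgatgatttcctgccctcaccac
Zap70, chr1:36761548-36761797, plus strand: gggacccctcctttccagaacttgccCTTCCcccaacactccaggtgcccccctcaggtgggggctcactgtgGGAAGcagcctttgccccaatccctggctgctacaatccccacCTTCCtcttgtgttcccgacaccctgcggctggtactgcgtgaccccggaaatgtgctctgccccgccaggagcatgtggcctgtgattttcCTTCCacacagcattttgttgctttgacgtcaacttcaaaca
Lck, chr4:129573642-129573891, minus strand: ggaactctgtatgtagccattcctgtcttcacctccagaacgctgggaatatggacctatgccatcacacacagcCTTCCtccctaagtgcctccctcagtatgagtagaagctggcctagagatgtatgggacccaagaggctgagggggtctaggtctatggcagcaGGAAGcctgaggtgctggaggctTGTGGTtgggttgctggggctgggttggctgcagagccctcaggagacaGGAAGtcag
Cd5, chr19:10738975-10739224, minus strand: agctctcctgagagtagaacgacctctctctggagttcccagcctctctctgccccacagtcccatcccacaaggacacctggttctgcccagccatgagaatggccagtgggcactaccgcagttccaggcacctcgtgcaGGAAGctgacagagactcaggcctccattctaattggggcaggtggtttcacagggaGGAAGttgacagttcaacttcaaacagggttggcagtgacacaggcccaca

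The ETS core was found in the windows of 8 of the 9 genes (all but Cd3g), with 4 matches in Zap70, 3 in Lck and Cd3e, 2 in Lat, Cd5, Cd3d and Lcp2, and 1 in Cd247. Of 32851 RefSeq promoter windows of this length, 64.1% hold it. The RUNX site was found in Lck alone of the 9, against 4614 of the 32851 windows. A TATA box (TATAAA, either strand) was found in none of the 9, against 12.4% of all windows.

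Nearly every cell carried some CD3 transcript. At least 1 of the 4 CD3 chains was at 1 FPKM or above in 88 of 89 KO CD4, 83 of 85 WT CD4, 86 of 86 KO CD8 and 90 of 90 WT CD8 cells. All 4 chains were found together in 49.4% of KO CD4 cells (exact 95% interval 38.7% to 60.3%), 42.4% of WT CD4 cells (31.7% to 53.6%), 47.7% of KO CD8 cells (36.8% to 58.7%) and 48.9% of WT CD8 cells (38.2% to 59.7%). These intervals overlap, and they cover counting error only. The median cell of every group had 7 of the 9 transcripts. All 9 were found in 22.5% of KO CD4, 18.8% of WT CD4, 9.30% of KO CD8 and 16.7% of WT CD8 cells.

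**Figure D1:**
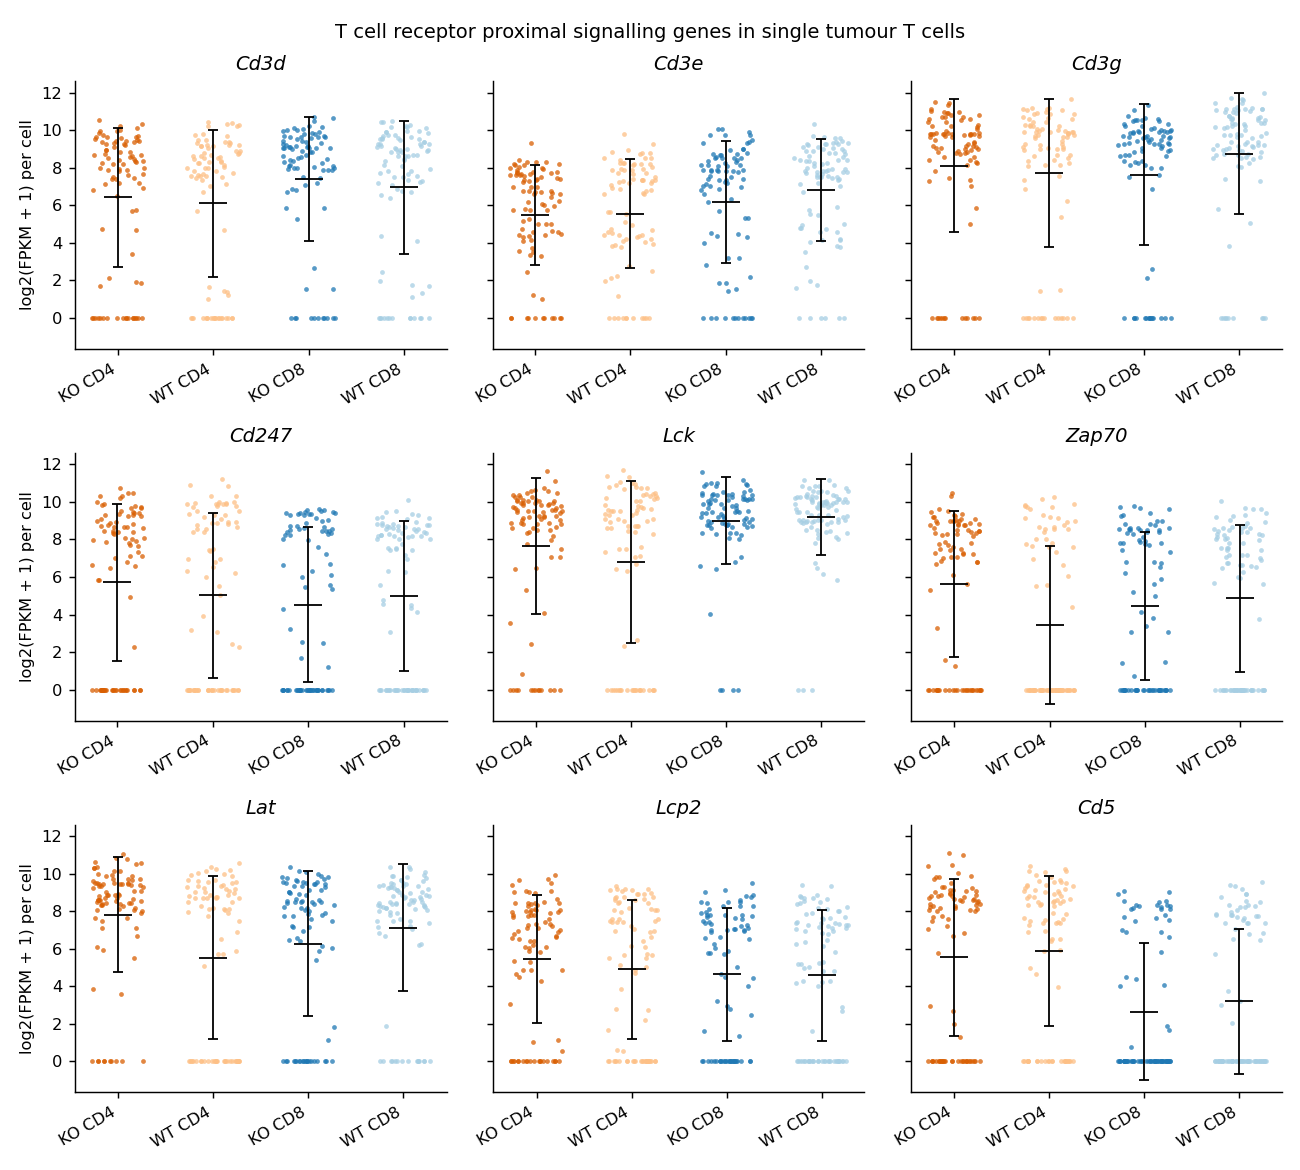
Values of the 9 genes as log2(FPKM + 1), with 1 point per cell and the 4 groups side by side; the horizontal bar is the mean and the error bar the SD over cells. Most transcripts were either at 0 or at high values, and the points at 0 are densest for Zap70 in WT CD4 cells and for Cd5 in both CD8 groups.

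Levels per length (FPKM) put Cd3g and Lck at the top. Cd3g encodes CD3 gamma. Its values ran from 0 through a median of 650 to 2933 FPKM in KO CD4, from 0 through 688 to 3290 in WT CD4, from 0 through 618 to 2627 in KO CD8 and from 0 through 802 to 4007 in WT CD8 cells. The ranges overlap almost fully, and WT CD8 cells had the highest median. Lck, the kinase bound to the co-receptors CD4 and CD8, ran from 0 through 587 to 3240 FPKM in KO CD4, from 0 through 481 to 3380 in WT CD4, from 0 through 710 to 3052 in KO CD8 and from 0 through 848 to 2299 in WT CD8 cells. The CD8 medians were above the CD4 medians in both genotypes, and the CD4 groups reached as high. On the mean log2 scale, Lck was first in both CD8 groups (9.0 in KO and 9.19 in WT) and Cd3g was first in both CD4 groups (8.11 in KO and 7.71 in WT).

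Cd3d, which encodes CD3 delta, had means of 6.42 ± 3.72 in KO CD4, 6.10 ± 3.91 in WT CD4, 7.41 ± 3.30 in KO CD8 and 6.95 ± 3.55 in WT CD8 cells (log2(FPKM + 1), SD over cells). Cd3e, which encodes CD3 epsilon, the chain shared by both CD3 dimers, was found in the most cells of any CD3 gene in 3 of the 4 groups. It was present in 87.6% of KO CD4, 87.1% of WT CD4, 86.0% of KO CD8 and 93.3% of WT CD8 cells, yet its medians over all cells were 84.8 FPKM in KO CD4, 105.9 in WT CD4, 175.6 in KO CD8 and 219.5 in WT CD8 cells, below those of Cd3d and Cd3g. Cd247, which encodes the zeta chain, was found in 67.4%, 61.2%, 59.3% and 63.3% of cells in the same order, the lowest share of the 4 CD3 genes in each group. Lcp2 was found in 76.4% of KO CD4, 68.2% of WT CD4, 68.6% of KO CD8 and 67.8% of WT CD8 cells. In the order of means within a group, the gap between neighbours was at most 1.80, which is less than the SD over cells of any of the 9 genes (2.01 to 4.39).

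**Figure D2:**
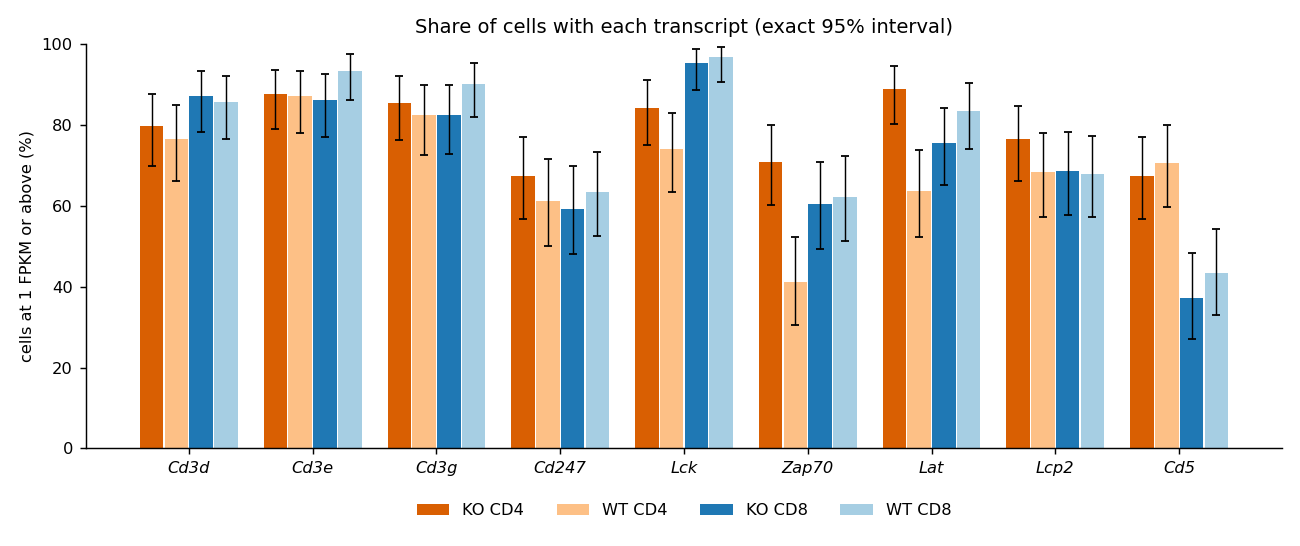
Share of cells with each transcript at 1 FPKM or above, in percent, for the 4 groups, with exact 95% intervals as error bars that cover counting error only. The bars of WT CD4 cells for Zap70 (41.2%) and Lat (63.5%) lie below those of KO CD4 cells, and the bars for Cd5 in both CD8 groups lie below both CD4 groups.

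In the CD4 sort, Lat and Zap70 had higher mean log2 values in the cells labelled KO than in those labelled WT. The CD3 chains, Lck, Lcp2 and Cd5 differed by less than 2-fold. Lat ran from 0 through a median of 422.4 to 2117 FPKM in KO CD4 cells, and from 0 through 273.2 to 1548 FPKM in WT CD4 cells. The KO cells had the higher median and highest value, and the ranges overlap. It was found in 88.8% of KO CD4 cells (80.3% to 94.5%) and 63.5% of WT CD4 cells (52.4% to 73.7%). The difference of means was 2.28, from 7.82 ± 3.08 in KO and 5.53 ± 4.33 in WT cells, and 9 of the 3864 measured genes had a higher one. Zap70 ran from 0 through 177.5 to 1425 FPKM in KO CD4 cells. In WT CD4 cells it ran from 0 through 0 to 1219 FPKM, so it was not detected in most WT CD4 cells. It was found in 70.8% of KO CD4 cells (60.2% to 79.95%) and 41.2% of WT CD4 cells (30.6% to 52.4%). Its difference was 2.20, from 5.62 ± 3.90 in KO and 3.42 ± 4.21 in WT cells, which was the 12th highest of all measured genes.

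Genes counted as measured reached 1 FPKM in 20% or more of 1 group's cells. Throughout, 2-fold stands for a difference of 1 between means of log2(FPKM + 1), not for a ratio of mean FPKM. Past 2-fold (a difference of 1 or more) in KO CD4 cells were 9.91% of them higher and 0.983% lower (10.9% in either direction), against 2 and 0 of the 9 genes. The median difference of the 9 was 0.55 and that of all measured genes 0.23, with 7 of the 9 genes above that of all genes. When cells were weighted so that both groups had the same spread of detected-gene numbers over 5 bins, both medians were 0.07, with 5 of the 9 genes higher and 4 lower in KO CD4 cells. Share intervals that did not overlap, with KO higher, were found for Lat and Zap70 and for 2.04% of all measured genes. With KO lower they were found for none of the 9 and for 0.414% of all measured genes.

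The difference for both genes lay in how many cells had the transcript detected. Among cells that had Lat, its median was 467 FPKM in KO CD4 and 466 FPKM in WT CD4 cells. Among cells that had Zap70, the median was 332.8 FPKM in KO CD4 and 372.7 FPKM in WT CD4 cells. With detecting cells only, the difference of means was 0.09 for Lat and -0.39 for Zap70, and the log2 ratio of mean FPKM was 0.65 for Lat and 0.47 for Zap70. Both transcripts were found together in 61.8% of KO CD4 cells (50.9% to 71.9%) and 29.4% of WT CD4 cells (20.02% to 40.3%). Neither was found in 2.25% of KO CD4 cells (0.273% to 7.88%) and 24.7% of WT CD4 cells (15.99% to 35.3%). These joint shares depend on the share of each gene alone and are not a separate result. With the number of detected genes removed, the correlation of Zap70 and Lat over cells was -0.23 in KO CD4 and 0.02 in WT CD4 cells. Cells without a transcript also had fewer genes in all: the median was 1937 genes in KO CD4 cells with Lat and 1256 without, and 1830.5 in WT CD4 cells with Lat and 1438 without. With that weighting, Lat differed by 1.71 and Zap70 by 2.09. Among cells with at least 2000 genes, Lat differed by 1.32 and Zap70 by 2.37.

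Foxp3, which encodes the transcription factor that marks regulatory T cells, was detected in 39.3% of KO CD4 cells (29.1% to 50.3%) and 54.1% of WT CD4 cells (42.96% to 64.98%), with intervals that overlap. Without cells that had Foxp3 (54 KO and 39 WT left), Lat differed by 1.83 and Zap70 by 3.06. Among cells with Foxp3 (35 KO and 46 WT), a setting that was not planned, Lat differed by 3.0 and Zap70 by 1.29. Lat was found in 97.1% of KO and 65.2% of WT cells with Foxp3, and in 83.3% of KO and 61.5% of WT cells without it. Zap70 was found in 71.4% of KO and 47.8% of WT cells with Foxp3, and in 70.4% of KO and 33.3% of WT cells without it. The share intervals of KO and WT cells did not overlap for Lat with Foxp3 and for Zap70 without it, and overlapped in the other 2 cases. Cd5, Cd3e and Cd247 did not keep their direction between these cells. Cd3e differed by 0.60 with Foxp3 and -0.53 without. Cd5 was found in 85.7% of KO and 73.9% of WT cells with Foxp3, and in 55.6% of KO and 66.7% of WT cells without it, and it differed by 1.35 with Foxp3 and -1.17 without. Cd247 was found in 74.3% of KO and 73.9% of WT cells with Foxp3, and in 62.96% of KO and 46.2% of WT cells without it, and it differed by -0.18 and 1.91. For Cd5 and Cd247 the share intervals of KO and WT cells overlap in both kinds of cell.

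For the remaining genes the CD4 differences were smaller. Lck differed by 0.85 (84.3% of KO and 74.1% of WT CD4 cells), Cd247 by 0.68, Lcp2 by 0.55, Cd3g by 0.40, Cd3d by 0.31, Cd3e by -0.06 and Cd5 by -0.31. Each of these values is below 2-fold. The share intervals of KO and WT cells overlap for each of these 7 genes. Each of the 7 took the opposite sign under at least 1 alternative: among cells with at least 2000 genes, for example, Cd3d differed by -0.76 and Lcp2 by -0.90, and with the weighting by detected-gene number Cd3g differed by -0.23.

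Other genes of the pathway were described from 6 lists with 73 members found in the table, 57 of which were measured in the CD4 sort. There, 14 of the 57 had mean log2 values higher by 1 or more in KO CD4 cells and none lower by 1 or more. Of all measured genes, 9.91% and 0.983% did so. The list values, here and in the other comparisons, were not repeated with the weighting by detected-gene number. Among receptors, Cd28, which encodes a co-stimulatory receptor, differed by 1.21 and Cd2 by -0.42. Among kinases and phosphatases, the phosphatase gene Ptpn6 differed by 0.75 (32.6% of KO and 24.7% of WT cells) and Ptprc, which encodes CD45, by -0.30. Among adaptors, Trat1 differed by 2.07 (31.5% of KO and 5.88% of WT cells) and Lime1 by 1.14, while Pag1 and Skap1 each differed by -0.02. Negative regulators had 4 of 9 measured members past 2-fold, all higher in KO CD4 cells (9.91% of all measured genes), with Ubash3a at 1.85, Dok2 at 1.58 and Dgkz at -0.22. Downstream, Plcg1, which encodes phospholipase C gamma 1, differed by 1.17, the calcium sensor gene Stim1 by 1.04 and the calcineurin subunit gene Ppp3r1 by -0.46. The early target genes had the highest list median, 1.09, with Cd69 at 2.55 and Nr4a1 at 2.26 (69.7% of KO and 48.2% of WT cells), and Il2ra at -0.14.

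**Figure D3:**
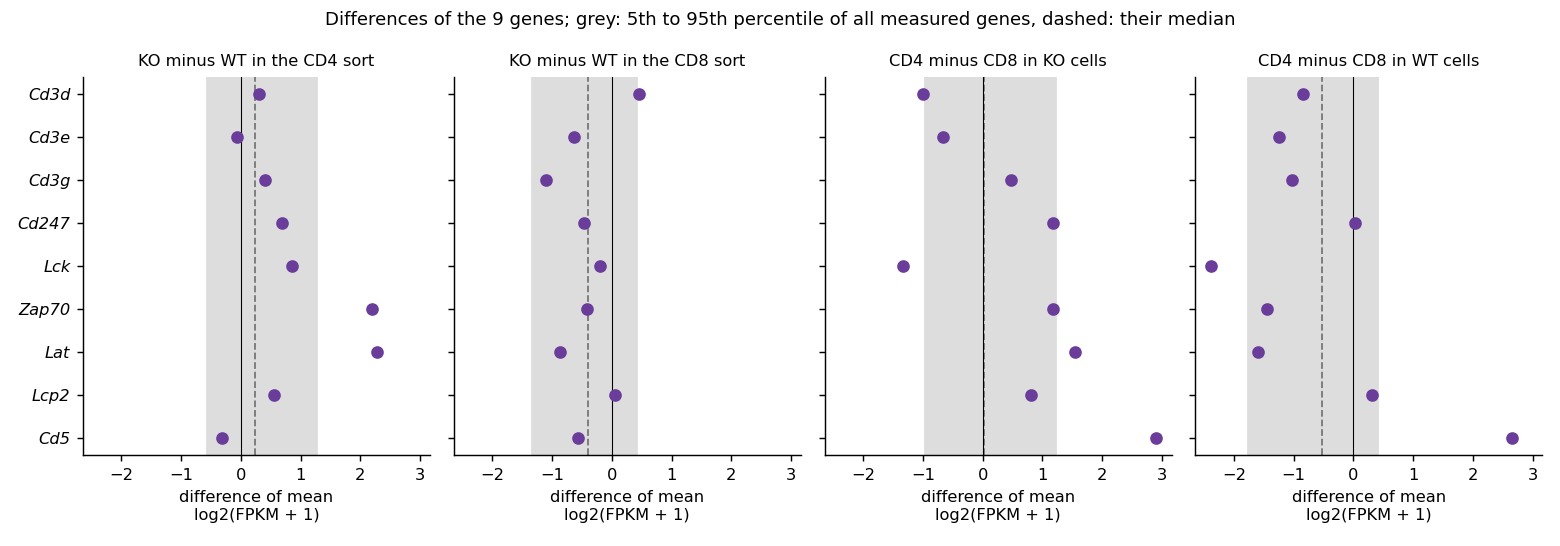
Difference of mean log2(FPKM + 1) for each of the 9 genes (points) in the 4 comparisons, with the 5th to 95th percentile of all measured genes in grey and their median as a dashed line. Lat and Zap70 lie to the right of the grey band for KO minus WT in the CD4 sort, and Cd5 lies to its right in both comparisons of the sorts.

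In the CD8 sort, 8 of the 9 genes differed by less than 2-fold between the libraries labelled KO and WT. Cd3g was past 2-fold, with a difference of -1.10, from 7.63 ± 3.77 in KO and 8.74 ± 3.23 in WT CD8 cells. It was found in 82.6% of KO (72.9% to 89.9%) and 81 of 90 WT CD8 cells (81.9% to 95.3%), and its mean was 664 FPKM in KO and 1069 FPKM in WT CD8 cells. Cd3d stood at the other end, with a difference of 0.46 and a place at percentile 95.7 of all measured genes. The neighbouring Cd3d and Cd3g genes thus differed in opposite directions in these pools, and for both the share intervals overlap.

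Of 4686 measured genes, 13.3% were at least 2-fold lower and 0.555% at least 2-fold higher in KO CD8 cells (13.8% in either direction), against 1 and 0 of the 9. The median difference of the 9 was -0.47 and that of all genes -0.40. Lat differed by -0.87, Cd3e by -0.63, Cd5 by -0.57, Cd247 by -0.47, Zap70 by -0.41, Lck by -0.19 and Lcp2 by 0.05. Once the median of all genes was subtracted, Cd3g differed by -0.70, Lat by -0.47 and Lck by 0.21. With the same weighting by detected-gene number, Cd3g differed by -0.49, Zap70 by 0.09 and Cd247 by 0.0, and Cd3d by 1.04. Under it Cd3d, higher in KO CD8 cells, was the 1 gene past 2-fold in place of Cd3g. None of the 9 genes had share intervals of KO and WT CD8 cells that did not overlap, against 4.99% of all genes with KO lower and 0.149% with KO higher.

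Other pathway genes in the CD8 sort went both ways around the median of all genes. Of 60 measured members of the 6 lists, 7 had mean log2 values lower by 1 or more in KO CD8 cells. None was higher by 1 or more. Both counts are near the background of 13.3% and 0.555% of all measured genes. 6 of these 7 were Ppp3r1 at -1.23 (15.1% of KO and 36.7% of WT CD8 cells), the inhibitory adaptor gene Sla at -1.21, the phosphatase gene Ptpn6 at -1.07, the transcription factor gene Nfatc1 at -1.06, Ubash3b at -1.04 and the early target Nr4a2 at -1.02. Higher in KO CD8 cells were Rhoh at 0.91, the phosphoinositide 3-kinase subunit gene Pik3r1 at 0.85, Cd28 at 0.79, the phosphatase gene Ptpn22 at 0.59, Skap1 at 0.55 and Grap2, which encodes a partner of SLP-76, at 0.53. Nr4a1 differed by 0.15 and Cd69 by -0.60.

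Between the sorts, Cd5 had higher and Lck lower means in CD4 than in CD8 cells, under both genotype labels. These comparisons use the same 4 pools as those above. Cd5 ran from 0 through a median of 267.6 to 2184 FPKM in KO CD4 cells, against 0 through 0 to 535 FPKM in KO CD8 cells. In WT it ran from 0 through 193.9 to 1381 FPKM in CD4 cells, against 0 through 0 to 743 FPKM in CD8 cells. In most CD8 cells Cd5 was not detected, and the highest CD4 cells lay above every CD8 cell. Cd5 was found in 67.4% of KO CD4 (56.7% to 76.98%) and 37.2% of KO CD8 cells (27.02% to 48.3%), and in 70.6% of WT CD4 (59.7% to 79.98%) and 43.3% of WT CD8 cells (32.9% to 54.2%). The difference of means was 2.90 in KO cells (14th highest of 3956 genes) and 2.65 in WT cells (7th highest of 4729). Among cells that had it, the median was 387 FPKM in KO CD4 and 248.6 in KO CD8 cells, and 381.2 in WT CD4 and 220.6 in WT CD8 cells. Without cells that had Foxp3, the difference was 1.82 in KO and 2.16 in WT cells.

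Lck was found in 84.3% of KO CD4 (75.02% to 91.1%) and 95.3% of KO CD8 cells (88.5% to 98.7%), and in 74.1% of WT CD4 (63.5% to 83.01%) and 96.7% of WT CD8 cells (90.6% to 99.3%). Its difference was -1.34 in KO and -2.38 in WT cells. Cells without detected Lck were thus more frequent in the CD4 pools, and among cells that had it the difference was -0.37 in KO and -0.33 in WT cells. Cells with Lck held a median of 1965 detected genes in KO CD4 and 1722 in WT CD4, and cells without it 1527.5 and 1363.5. Weighted by detected-gene number, Lck differed by -1.09 in KO and -1.59 in WT cells.

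For Lat, Zap70 and Cd3g the difference between the sorts had opposite signs under the KO and WT labels. Lat differed by 1.55 between the sorts in KO cells and by -1.60 in WT cells, Zap70 by 1.17 and -1.44, and Cd3g by 0.47 and -1.03. For Lat, the WT CD4 share of 63.5% and the WT CD8 share of 83.3% (74% to 90.4%) had intervals that did not overlap, while for Zap70 they overlapped narrowly. Weighted by detected-gene number, the WT differences were -0.45 for Lat and -0.32 for Zap70, and 0.27 for Cd3g, which is the opposite direction. In detecting cells only, the WT differences of Lat (0.16) and Zap70 (0.50) also had the opposite sign, as did that of Cd3g in KO cells without Foxp3 (-0.26). Cd247 differed by 1.17 in KO and 0.03 in WT cells. Lcp2 differed by 0.81 and 0.31, Cd3d by -1.0 and -0.85, and Cd3e by -0.67 and -1.25. Cd3d in KO cells was just short of 2-fold.

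In KO cells, 8.24% of 3956 measured genes were at least 2-fold higher and 4.55% at least 2-fold lower in CD4 cells (12.8% in either direction), against 4 and 1 of the 9. In WT cells, 1.54% of 4729 genes were at least 2-fold higher and 23.4% at least 2-fold lower in CD4 cells (24.9% in either direction), against 1 and 5 of the 9. Non-overlapping share intervals were found for Cd5 in both genotypes, with CD4 higher, against 3.08% of genes in KO and 0.782% in WT. With CD4 lower they were found for Lck and Lat in WT cells, against 12.4% of genes, and for none of the 9 in KO cells, against 2.48%. The median difference of the 9 was 0.81 in KO and -1.03 in WT cells, while that of all genes was 0.03 and -0.53.

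Among the other pathway genes, the sorts differed most in the co-receptors they were sorted by, which is no result. Of the rest, the CD5 relative Cd6 differed by 1.95 in KO cells, and the adaptor gene Sla by 2.40 in KO cells (77.5% of CD4 and 56.98% of CD8 cells). In WT cells the direction of Sla was opposite: all 9 measured negative regulators, Sla among them, had lower means in CD4 cells. Ptpn6, which encodes the phosphatase SHP-1, differed by -2.57 in WT cells (24.7% of CD4 and 52.2% of CD8 cells), the adaptor gene Sh2d2a by -2.34, Pik3cd, which encodes the delta subunit of phosphoinositide 3-kinase, by -2.24 and Themis by -2.12. Under the KO label, Ptpn6 was found in 32.6% of CD4 and 44.2% of CD8 cells, and Themis differed by -0.9. In KO cells Prkcq, which encodes protein kinase C theta, differed by -1.72 and Pik3cd by -1.36. The early targets Nr4a1 and Egr1 differed by 2.62 and 2.39 in KO cells, and Nr4a2 by -1.82 in WT cells. Egr1 differed by 0.75 in WT and Nr4a2 by -0.43 in KO cells. Myc differed by -1.37 in KO cells, and Il2ra by 1.53 and Cd69 by -1.23 in WT cells. For Cd69 this direction held neither under the KO label nor for mean FPKM. It was found in 66.3% of KO CD4 and 51.2% of KO CD8 cells, with means of 1043 and 424.4 FPKM. In WT its mean was 568.3 FPKM in CD4 and 398 FPKM in CD8 cells. Of 62 list members measured in WT, co-receptors included, 2 were past 2-fold higher and 22 lower in CD4 cells, against 1.54% and 23.4% of all genes. In KO they were 9 and 10 of 63, against 8.24% and 4.55%.

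**Figure D4:**
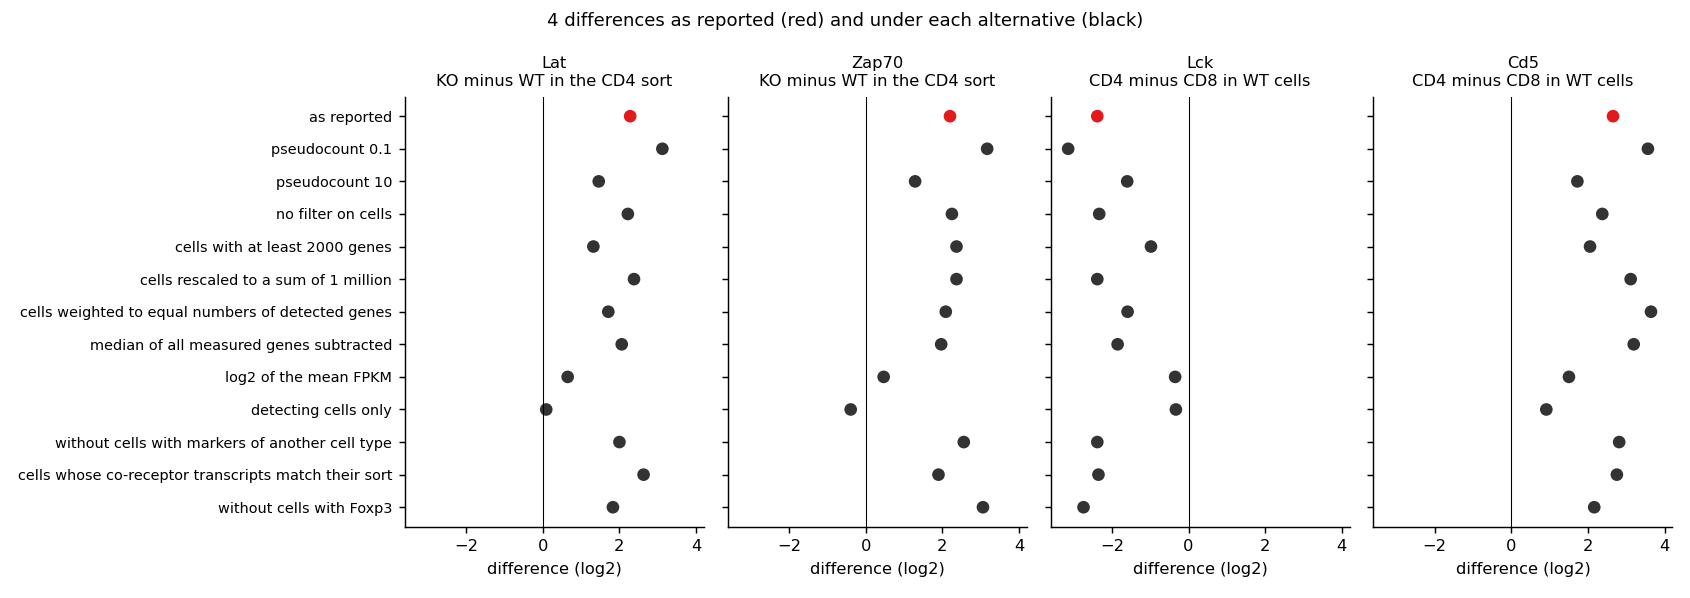
Differences (log2) of Lat and Zap70 for KO minus WT in the CD4 sort, and of Lck and Cd5 for CD4 minus CD8 in WT cells, as reported (red) and under each of 12 alternatives (black). Lat, Zap70 and Lck lie nearest to 0 when only detecting cells or the mean FPKM are used, where Zap70 reaches -0.39, and Cd5 lies between 0.91 and 3.64.

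From cell to cell within a group, the 9 transcripts were only loosely related. Correlations of log2(FPKM + 1) were taken within each group after a linear fit on the log2 number of detected genes was removed, since each gene correlated with that number (r of 0.11 to 0.46). Over 36 pairs in 4 groups, r ranged from -0.23 to 0.47 with a median of 0.08, and 9 pairs were positive in all 4 groups. Lck and Lat had the highest mean r, 0.24, with 0.29 in KO CD4, 0.32 in WT CD4, 0.20 in KO CD8 and 0.16 in WT CD8 cells. Cd3g and Lck followed with 0.22. Zap70 and Lat, the pair with the highest differences in the CD4 sort, had the lowest mean r, -0.08. The neighbours Cd3d and Cd3e had a mean r of 0.01. All values come from the cells of 1 pool each, with drop-out of transcripts at this depth, and are given as a description.

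**Figure D5:**
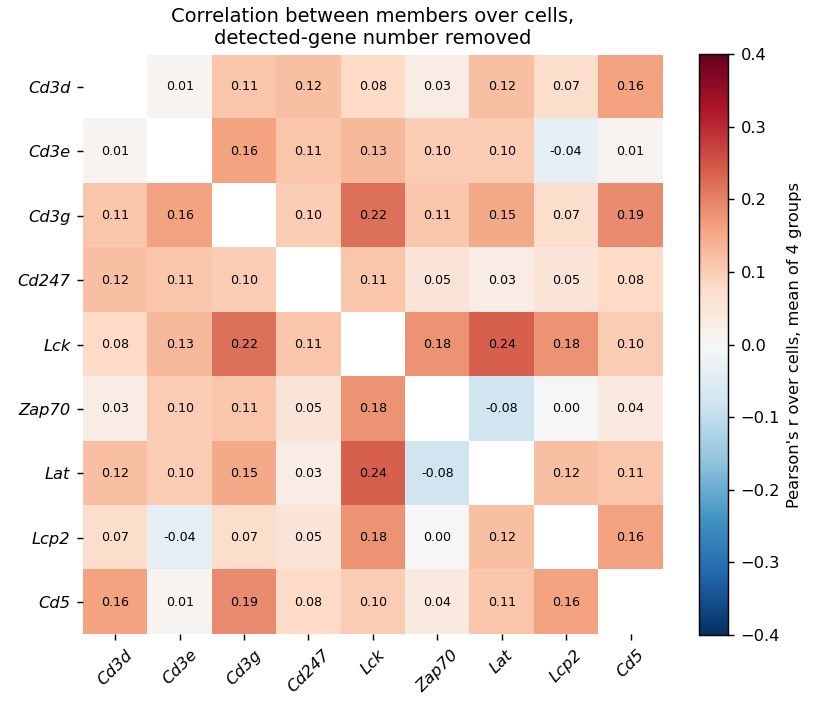
Pearson's r over cells between each pair of the 9 genes, after removal of the number of detected genes, as the mean of the 4 groups (colour and printed value). Values lie between -0.08 and 0.24, with Lck against Lat highest.

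Over the 350 cells, the genes whose values followed the mean z-score of the 9 most closely, by the mean r of the 4 groups among 2374 genes, were Gapdh (0.36), B2m (0.34), Rac2 (0.33), Selplg (0.33), Actg1 (0.32), Laptm5 (0.31), Actb (0.31), H2-K1 (0.31), Ndfip1 (0.30) and Ptprc (0.29). The 5th and 95th percentiles of r over these genes were -0.12 and 0.15. Most of the 10 are abundant transcripts found in over 90% of cells of each group, the exceptions being Selplg and Ndfip1. Cells with 7 or more of the 9 transcripts also had more genes in all, with medians of 2062 against 1601.5 in KO CD4, 1872.5 against 1379 in WT CD4, 2079.5 against 1860.5 in KO CD8 and 2503.5 against 1838.5 in WT CD8 cells, so the richness of a cell's library moved with these genes.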

How the data were processed

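The values used were gene-level FPKM (fragments per kilobase, scaled to library size), deposited by the authors, made with Bowtie and RSEM on mm10 per the submitters' processing notes, and TMM-normalized, per the labels. Tool versions and the annotation are not given in the sources used here, and read depth per cell is unknown. The table held 23366 rows in 375 columns. 4 columns whose names end in Population and 4 rows with repeated symbols were left out. A cell entered with 1000 or more genes at 1 FPKM, which 350 of 371 passed. No doublet caller was run, and the highest correlation between 2 cells was 0.687. Levels are means of log2(FPKM + 1) over a group's cells, a scale that understates differences of low genes. A difference in the share of cells with a transcript also enters these means. Shares carry exact Clopper-Pearson 95% intervals. No test was made, since each group was read as 1 pool. The members, the pathway lists and the rule for named genes (the 9 genes, the 2 highest and 2 lowest measured members of each list per comparison, and the 10 genes most correlated with the 9) were chosen with earlier results of these data known, and the text names a selection of the list members. The result of 1 list member is not reported here. Trac, Trbc1 and Trbc2 were not matched and are not used here. The genotype labels could not be checked from the Il27ra transcript. The calculation was tested on simulated data. Python 3.11.15, pandas 2.3.3, numpy 2.4.6, scipy 1.17.1 and matplotlib 3.10.9 were used, with 12 alternatives per difference.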

Additional observations from a re-analysis of the deposited data

Results flagged for a closer look

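For 5 of the 9 genes, the libraries labelled KO and WT differed in opposite directions in the CD4 and the CD8 sort, with a gap of at least 1 on the log2 scale. The gap between the CD4 and the CD8 difference was 3.15 for Lat (2.28 in CD4 and -0.87 in CD8), 2.61 for Zap70 (2.20 and -0.41), 1.5 for Cd3g (0.40 and -1.10), 1.15 for Cd247 (0.68 and -0.47) and 1.04 for Lck (0.85 and -0.19). With cells weighted by detected-gene number, the signs were no longer opposite for Zap70 (2.09 in CD4 and 0.09 in CD8), Cd3g (-0.23 and -0.49) and Cd247 (0.41 and 0.0). With the median of all genes subtracted they were no longer opposite for Lck (0.63 and 0.21), and Zap70 in CD8 was at 0.0. Each group was read as 1 pool, so the difference between the sorts was not tested. Of 3621 genes measured in both sorts, 28.8% showed the same pattern (higher in KO CD4 and lower in KO CD8 cells, with a gap of at least 1), and the median gap of all of them was 0.60. Lat had the 14th highest gap and Zap70 the 64th highest, while Cd3g, Cd247 and Lck lay at percentiles 84.7, 73.8 and 69.5. The median number of detected genes also ran opposite ways, with 1868 in KO and 1661 in WT cells of the CD4 sort and 1955 in KO and 2148 in WT cells of the CD8 sort.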

How the results depend on the processing

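No paired analysis was possible because each group was read as 1 pool and no test was made. A median was taken as moved when it shifted by 0.5 or more. The median difference of the 9 genes between KO and WT in the CD4 sort (0.55) became 0.03 with the log2 of the mean FPKM and -0.04 in detecting cells only. Between CD4 and CD8 it became 0.22 without Foxp3 cells in KO (0.81), and in WT (-1.03) it became -0.42 with at least 2000 genes, -0.50 with the median of all genes subtracted, -0.20 with the mean FPKM, -1.63 without Foxp3 cells, and turned to 0.27 with cells weighted to equal detected genes and to 0.16 in detecting cells only. The count of genes past 2-fold for KO against WT in CD4 (2) was 0 with the mean FPKM and in detecting cells only, and 4 without cells with other cells' markers, with matching co-receptors, or without Foxp3 cells (3 higher and 1 lower in this last case). In CD8 (1) it was 2 with a pseudocount of 0.1 or at least 2000 genes, and 0 with a pseudocount of 10, no cell filter, rescaled cells, the median subtracted, the mean FPKM or detecting cells only. For CD4 against CD8 in KO (5) it was 2 with a pseudocount of 10, 2 with the mean FPKM and 1 in detecting cells only, and in WT (6) it was 2, 1 and 0 under these, and 3 with the median subtracted. The share of cells with all 4 CD3 chains was 72.97% in KO CD4, 68% in WT CD4, 63.2% in KO CD8 and 66.1% in WT CD8 among cells with at least 2000 genes, and 35.2% in KO CD4 and 25.6% in WT CD4 without Foxp3 cells. Of 441 differences of single genes under alternatives, 38 had the opposite sign to the reported one, 34 of them where the reported one was below 2-fold. The other 4 were Zap70 for KO against WT in CD4 (-0.39) and, for CD4 against CD8 in WT, Zap70 (0.50) and Lat (0.16), all in detecting cells only, and Cd3g (0.27) with weighted cells. The cause was not tested. Cd5 kept its direction between the sorts in all 12 alternatives in both genotypes.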

Other observations

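1 KO CD4 cell had 1023000 FPKM over the 4 haemoglobin and erythroid markers out of 1788000 FPKM in all, with 2028 genes and 6 of the 9 transcripts detected. Without it, an exclusion chosen after the data were seen, the KO against WT difference in the CD4 sort was 2.27 for Lat, 2.18 for Zap70, 0.82 for Lck, 0.75 for Cd247 and -0.25 for Cd5.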
